A study of Arabidopsis thaliana with 6 samples.

Results

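The genes described here are 10 Arabidopsis thaliana genes that are known either for being induced in darkness or for breaking down the branched-chain amino acids leucine, isoleucine and valine. They were picked by locus code with their signals on these arrays already known: ASN1 (AT3G47340), SEN1 (AT4G35770), DIN2 (AT3G60140), DIN10 (AT5G20250), DIN3 (AT3G06850, listed as BCE2 in RefSeq), DIN4 (AT3G13450), BCAT-2 (AT1G10070), MCCA (AT1G03090), MCCB (AT4G34030) and IVD (AT3G45300). They are 10 of the 22746 probe sets that are not controls on the Affymetrix ATH1 array, with 1 probe set for each gene. The difference between the genotypes is what chose them, so their values in that contrast are given as a description with no test. No dark-treated sample was analysed here, so the response of these genes to darkness was not measured.

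Total RNA came from leaves of 2-week-old seedlings on MS agar plates with 1.5% sucrose, in cycles of 16 h light at 22°C and 8 h dark at 20°C, after 3 days of cold treatment of the seeds. The essp3 mutant (3 arrays) carries a lesion in BRAHMA (BRM), a chromatin remodelling ATPase of the SWI/SNF type. It was compared with a wild type (3 arrays) that carries the reporter ProβCG:GUS, where β-glucuronidase is driven from the promoter of the storage protein β-conglycinin of seeds. The samples of a genotype are labelled as independent biological replicates. The labels call the mutant allele both brm5 and brm-6, and name the reporter for the wild type only. The sources used here give neither the number of plants behind a sample nor the hour of harvest.

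In darkness or when sugar runs short, leaves lose photosynthetic carbon and switch to other fuels, among them the amino acids released from protein. The genes of this response were named for it (DIN, dark-inducible; SEN, senescence). Branched-chain amino acids are broken down in mitochondria: an aminotransferase makes the keto acid, a dehydrogenase complex turns that into an acyl-CoA, and separate branches oxidise the acyl-CoAs of leucine, isoleucine and valine. The electrons pass through the electron transfer flavoprotein to the respiratory chain.

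Signals are MAS5 intensities on a linear scale, which the authors scaled to a mean of 1000 on every array. Present calls numbered 12863 to 13723 on an essp3 array and 13148 to 13761 on a wild-type array. Of the 13626 probe sets tested, called Present on at least 3 of 6 arrays, 3865 (28.4%) differed between the genotypes. In essp3, 1966 (14.4%) rose and 1899 (13.9%) fell, and the median log2 fold change was -0.01. Each adjusted p below is from this limma fit, adjusted by Benjamini-Hochberg across the 13626 probe sets, and a gene rose or fell where it was under 0.05. The array names of the 2 genotypes carry different codes. The sources used here do not say what the codes stand for. An array run, if they mark one, cannot be told apart from genotype. The 25S ribosomal RNA control moved with genotype, at 464, 371 and 483 on the essp3 arrays and 4792, 7797 and 4149 on the wild-type arrays. The ratio of 3′ to 5′ GAPDH signal, a measure of RNA integrity, was 1.44 to 1.70 on the essp3 arrays and 1.68 to 1.83 on the wild-type arrays. The same ratio for actin was 2.57 to 2.86 on the essp3 arrays and 2.29 to 2.61 on the wild-type arrays, and the part of these controls in the results below was not tested. The 3 leaf markers with a probe set, RBCS1A, CA1 and RCA, were Present on all arrays (adjusted p = 0.412, 0.0797 and 0.567). Of 4 root markers SHR and EXPA7 had no Present call and COBL9 had 1, while SCR, which is also active in leaf vasculature, rose (763 ± 56.9 in essp3 and 511 ± 19.1 in wild type, SD, n = 3 each). The shoot apex and flower markers STM, WUS, KNAT1, CLV3, AG and AP3 had no Present call, while SEP3 fell (511 ± 50.1 in essp3 and 924 ± 96.0 in wild type, SD, n = 3 each).

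All 9 detected genes of the set read lower in essp3 leaves than in wild-type leaves, at 12.6% to 64.0% of the wild-type level (ratio of geometric means). The 9 were Present on all 6 arrays, and 6 of them were below 50% of wild type. On each of the 9 probe sets all essp3 arrays lay below all wild-type arrays, which held for 21.6% of all tested probe sets. That count describes how the genes were chosen and is not a result about them. The median log2 fold change of the 9 was -1.35. For the whole array, 448 tested probe sets (3.29%) had a log2 fold change below -1, and BCAT-2 had the 6th lowest of all 13626. The remaining gene, DIN2, was Present on a single essp3 array and on no wild-type array, so no fold change is given for it. In RNA from whole leaves, fewer cells of a type and less of a transcript per cell cannot be told apart.

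**Figure D1:**
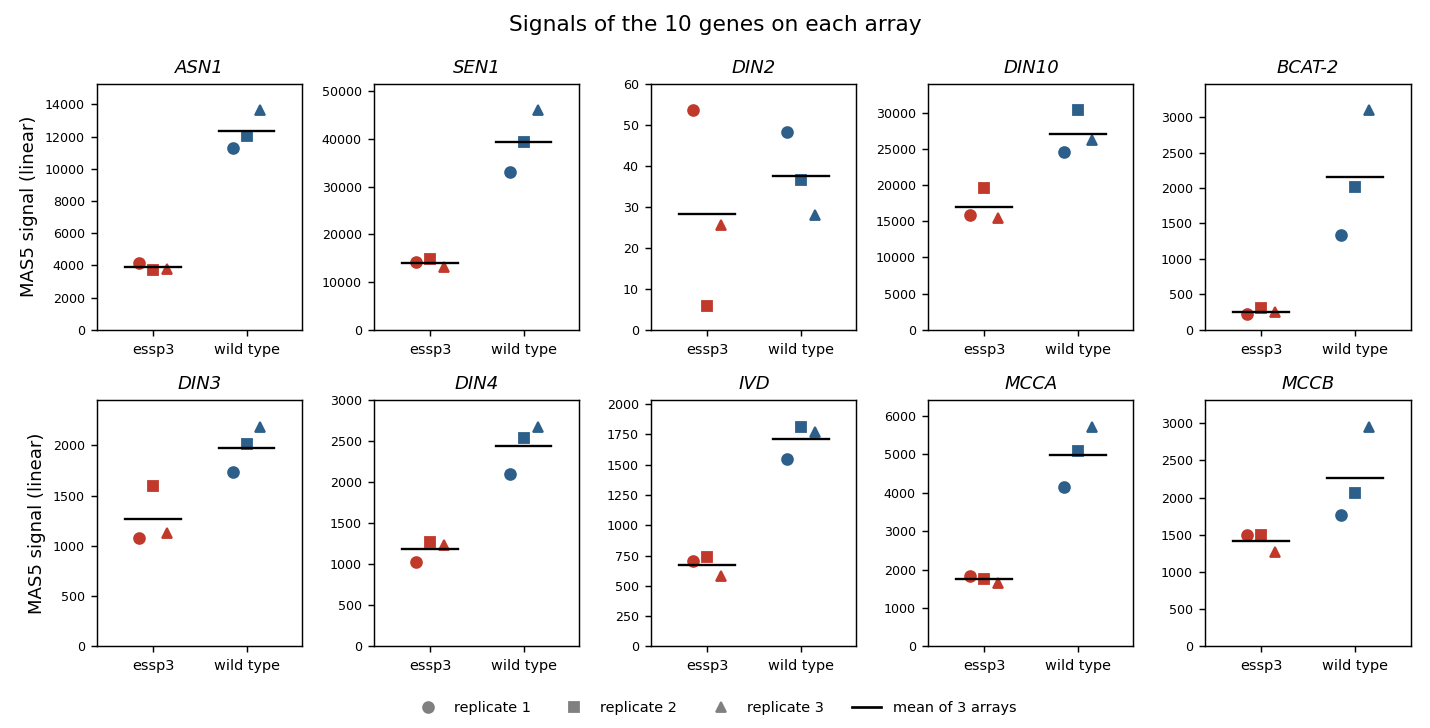
Linear MAS5 signal of each of the 10 genes on each array, with essp3 at the left and wild type at the right of every panel; symbols mark the replicate and bars the mean of 3 arrays, and the axes of the panels differ. In 9 panels the essp3 and wild-type arrays do not overlap, and in the DIN2 panel, where only essp3 replicate 1 was called Present, they do.

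ASN1 encodes the glutamine-hydrolysing asparagine synthetase 1, which stores nitrogen in asparagine when carbon is short. Its signals were 4155, 3727 and 3807 on the essp3 arrays, against 11288, 12054 and 13650 on the wild-type arrays. The means were 3897 ± 228 in essp3 and 12330 ± 1205 in wild type (SD, n = 3 each), a log2 fold change of -1.66 (SE 0.11). The highest essp3 array was thus far below the lowest wild-type array, and wild-type replicate 1 was the lowest of its group.

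SEN1 encodes a small senescence-associated protein of the rhodanese family that is widely used as a marker of dark-induced ageing of leaves. It read 14262, 14757 and 13130 on the essp3 arrays, against 32960, 39239 and 46018 on the wild-type arrays. The essp3 arrays lay close together (mean 14050 ± 834), while the wild-type arrays spread more widely (39406 ± 6531, SD, n = 3 each). The log2 fold change was -1.48 (SE 0.12), or 35.9% of wild type.

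DIN10 encodes a protein of the raffinose synthase family, annotated as a seed imbibition protein. Its probe set gave 15859, 19637 and 15511 on the essp3 arrays and 24582, 30349 and 26220 on the wild-type arrays, with log2 fold change -0.67 (SE 0.12). Replicate 2 was the highest array in both genotypes, and the groups did not overlap. DIN2 encodes a β-glucosidase of glycosyl hydrolase family 1. Its signals of 53.7, 5.78 and 25.5 on the essp3 arrays and 48.3, 36.6 and 28.1 on the wild-type arrays overlapped and stood at the level of probe sets not called Present. Of the dark-induced genes, ASN1, SEN1 and DIN10 were thus lower on every essp3 array, and DIN2 was not detected on 5 of 6 arrays.

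In branched-chain breakdown, the first step is transamination. BCAT-2, a branched-chain amino acid aminotransferase, showed the widest gap of the set, with 219, 308 and 251 on the essp3 arrays against 1342, 2016 and 3099 on the wild-type arrays. The means were 259 ± 45.1 in essp3 and 2153 ± 886 in wild type (SD, n = 3 each), a log2 fold change of -2.98 (SE 0.24) and 12.6% of wild type. The wild-type arrays differed among themselves by 2.31-fold, and the lowest of them was still above every essp3 array. BCAT-1, the aminotransferase of mitochondria, lies next to BCAT-2 with 0 genes between them in the RefSeq annotation of TAIR10.1. It read 995 ± 85.0 in essp3 and 1066 ± 98.4 in wild type (SD, n = 3 each), with log2 fold change -0.10 (SE 0.14, adjusted p = 0.639). These neighbouring genes, both annotated as branched-chain amino acid aminotransferases, thus had very unlike values in the same contrast. BCAT-2 is placed at this step by that annotation, and the compartment of its enzyme was not measured. The difference between the 2 genes was not tested, because BCAT-2 was chosen for its own.

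The branched-chain keto acid dehydrogenase complex (BCKDH) carries out the committed step with 3 kinds of subunit. DIN4 encodes the β chain of its E1 component, the decarboxylase, and gave 1035, 1280 and 1240 on the essp3 arrays against 2102, 2540 and 2682 on the wild-type arrays (log2 fold change -1.04, SE 0.14). DIN3 encodes the E2 component, which transfers the acyl group to coenzyme A. It gave 1076, 1592 and 1124 on the essp3 arrays and 1736, 2011 and 2186 on the wild-type arrays (log2 fold change -0.66, SE 0.16). Essp3 replicate 2 came within a short distance of wild-type replicate 1 for DIN3, so that gap rests on a narrow margin, whereas the DIN4 groups were well apart. Among subunit genes outside the set, AT1G21400, annotated as a putative E1 α chain, fell. Its signals were 430, 525 and 330 on the essp3 arrays and 1761, 2003 and 2164 on the wild-type arrays (log2 fold change -2.23, SE 0.17, adjusted p = 1.33e-06). Its probe set carries the suffix for probes shared between transcripts, so a like gene may add to the signal. The other putative E1 α gene, AT5G09300, read 113 ± 47.6 in essp3 and 187 ± 35.5 in wild type (SD, n = 3 each; adjusted p = 0.119), with 2 Present calls in essp3. BCDH BETA1, the second E1 β gene, read 636 ± 71.7 in essp3 and 808 ± 29.6 in wild type (log2 fold change -0.35, SE 0.15, adjusted p = 0.0906).

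The E3 component, dihydrolipoamide dehydrogenase, regenerates the lipoyl group and is shared with other mitochondrial complexes such as pyruvate dehydrogenase. Its gene mtLPD1 went the other way from DIN3 and DIN4. It rose to 12660, 11716 and 9730 on the essp3 arrays, against 8607, 7381 and 7591 on the wild-type arrays (log2 fold change 0.53, SE 0.12, adjusted p = 0.00592). The second E3 gene, mtLPD2, read 1525 ± 27.5 in essp3 and 1441 ± 112 in wild type (SD, n = 3 each; adjusted p = 0.661).

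Leucine is broken down through isovaleryl-CoA. IVD, isovaleryl-CoA dehydrogenase, oxidises it and passes electrons to the electron transfer flavoprotein; its signals were 707, 738 and 580 on the essp3 arrays, against 1549, 1814 and 1770 on the wild-type arrays. The log2 fold change was -1.35 (SE 0.15), or 39.3% of wild type. MCCA and MCCB encode the α and β chains of 3-methylcrotonyl-CoA carboxylase, the biotin enzyme that follows. MCCA gave 1822, 1760 and 1657 on the essp3 arrays against 4135, 5096 and 5719 on the wild-type arrays (log2 fold change -1.50, SE 0.14). MCCB gave 1498, 1497 and 1262 on the essp3 arrays against 1772, 2063 and 2953 on the wild-type arrays (log2 fold change -0.64, SE 0.17). Both chains were lower in essp3, but MCCA stood at 35.3% of wild type and MCCB at 64.0%, the smallest change of the 9. For MCCB the highest essp3 and lowest wild-type arrays were close, and its mean was 1419 ± 136 in essp3 and 2263 ± 616 in wild type (SD, n = 3 each). No test compares the 2 chains, since both were chosen for their values here.

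Outside the set, the leucine branch held 1 gene that rose and 1 that did not pass the test. AT2G26800, annotated as a putative hydroxymethylglutaryl-CoA lyase, which splits the final intermediate into acetoacetate and acetyl-CoA, rose to 1393, 1512 and 1811 on the essp3 arrays, against 939, 604 and 610 on the wild-type arrays. All essp3 arrays lay above all wild-type arrays, as they did for 21.1% of tested probe sets, with a log2 fold change of 1.15 and an adjusted p of 0.000378 (SE 0.18). AT4G16800, a putative enoyl-CoA hydratase, read 454 ± 131 in essp3 and 629 ± 98.3 in wild type (SD, n = 3 each; log2 fold change -0.50, SE 0.21, adjusted p = 0.0936).

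On the valine branch, ALDH6B2 encodes methylmalonate-semialdehyde dehydrogenase, which makes the end product propionyl-CoA. It fell to 2669, 2857 and 3355 on the essp3 arrays, against 5419, 6588 and 6596 on the wild-type arrays (log2 fold change -1.07, SE 0.13, adjusted p = 5.78e-05). The other 3 genes placed on this branch did not pass the test. For CHY1, the 3-hydroxyisobutyryl-CoA hydrolase, the log2 fold change was 0.17 (adjusted p = 0.384), and AT4G20930, a putative 3-hydroxyisobutyrate dehydrogenase, -0.26 (adjusted p = 0.355). AT4G31810, of the enoyl-CoA hydratase/isomerase family, read 411 ± 70.1 in essp3 and 259 ± 105 in wild type (SD, n = 3 each; adjusted p = 0.0685).

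Electrons from IVD leave through the electron transfer flavoprotein and its oxidoreductase. ETFBETA, the β subunit, fell to 602, 453 and 444 on the essp3 arrays, against 816, 851 and 1055 on the wild-type arrays (log2 fold change -0.87, SE 0.17, adjusted p = 0.00193). Its partner ETFALPHA had -0.23 (adjusted p = 0.317), and ETFQO, which hands the electrons to ubiquinone, had -0.39 (SE 0.16, adjusted p = 0.0872). D2HGDH, a D-2-hydroxyglutarate dehydrogenase that feeds the same carrier, had 0.06 (adjusted p = 0.813). Over all tested probe sets 13.9% fell and 14.4% rose. Of the 16 other genes listed for branched-chain breakdown, 3 fell, 2 rose and 11 did not pass the test. Their median log2 fold change was -0.25, against -0.01 over all tested probe sets. The pathway genes BCAT-2, DIN3, DIN4, IVD, MCCA and MCCB, all lower in essp3, belong to the set and are outside these 16. No gene was placed on the isoleucine branch. The count therefore does not describe the whole pathway. In an unmoderated test the calls of AT2G26800, mtLPD1 and ETFBETA ended (adjusted p = 0.0578, 0.0824 and 0.0607), and under every other alternative run they held.

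**Figure D2:**
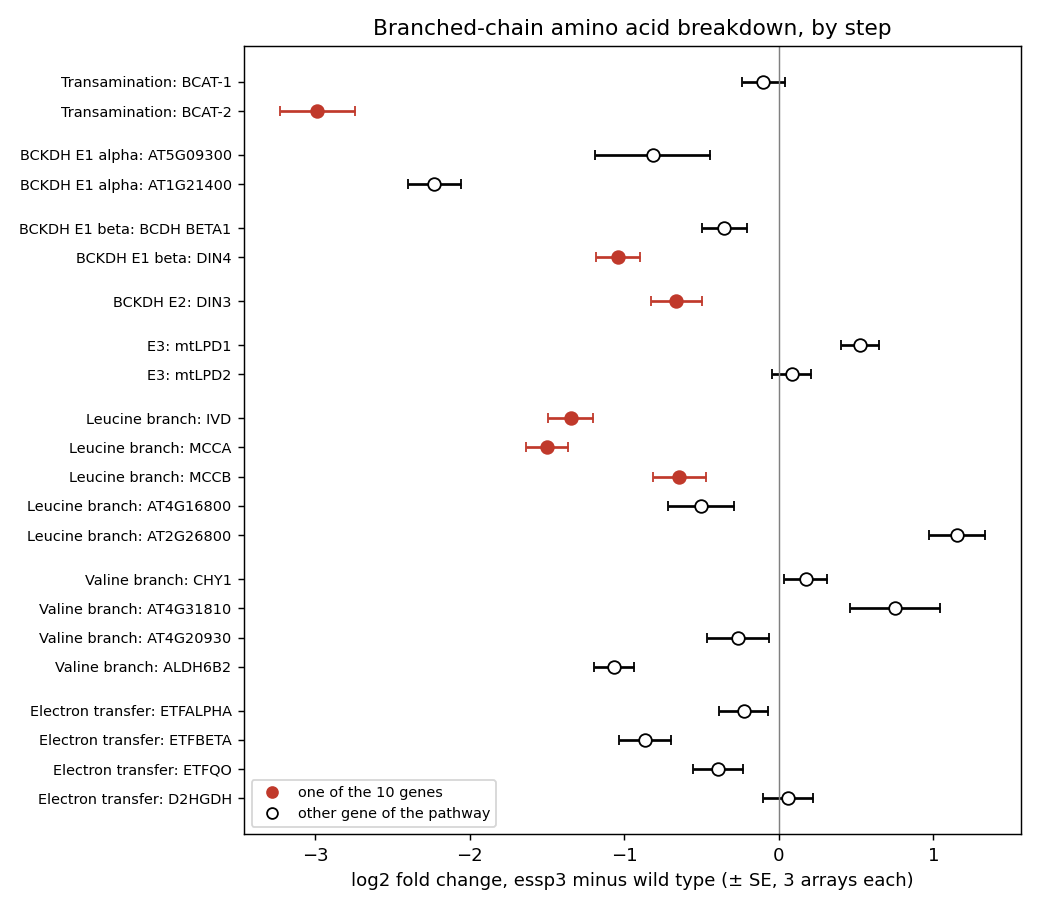
Log2 fold change (essp3 minus wild type, with SE from the fit, 3 arrays each) of listed genes of branched-chain amino acid breakdown, in pathway order. No gene was placed on the isoleucine branch. Filled red points belong to the 10 genes and open points to other genes of the pathway. Values run from -2.98 for BCAT-2 to 1.15 for AT2G26800, with lower and higher genes at neighbouring steps.

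Relatives of ASN1, SEN1, DIN2, DIN10, BCAT-2 and DIN4 were measured to see whether whole families moved. No relatives of DIN3, MCCA, MCCB or IVD were listed. Of 21 close family members on the array, 12 were tested; 3 fell and 9 did not pass the test, where 13.9% of all tested probe sets fell. Their median log2 fold change was -0.17. The lists overlap: BCAT-1 and BCDH BETA1 are also counted with branched-chain breakdown, and BCAT3 and BCAT5 with branched-chain synthesis. The asparagine synthetase genes ASN2 and ASN3 read 4318 ± 766 and 489 ± 68.9 in essp3, against 4413 ± 200 and 407 ± 78.1 in wild type (SD, n = 3 each; adjusted p = 0.835 and 0.301). Neither passed the test, in contrast to the description of ASN1 above. Of the rhodanese relatives of SEN1, STR16 fell to 3219 ± 408 in essp3, against 7214 ± 942 in wild type (SD, n = 3 each; log2 fold change -1.16, SE 0.13, adjusted p = 3.78e-05). STR18 fell by 0.88 on the log2 scale (SE 0.29, adjusted p = 0.0350) with 1 Present call in essp3. The adjusted p of STR18 missed the threshold without essp3 replicate 2 or 3 (0.136 and 0.0592), without wild-type replicate 2 or 3 (0.131 and 0.109), with the replicate block (0.0513) and in 2 other settings, and ran from 0.0130 to 0.161 over all alternatives. The rhodanese-like gene AT4G27700 gave 0.46 on the log2 scale (adjusted p = 0.0578), and AT2G17850 had no Present call.

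Among aminotransferases, BCAT4, which starts the chain elongation of methionine towards glucosinolates, fell to 1660 ± 206 in essp3, against 2903 ± 258 in wild type (SD, n = 3 each; log2 fold change -0.81, SE 0.13, adjusted p = 0.000597). BCAT3, a chloroplast enzyme, had 0.18 (adjusted p = 0.371) and BCAT5, listed as ATBCAT-5, had -0.52 (SE 0.20, adjusted p = 0.0683). AT1G50110, titled branched-chain aminotransferase 6, was Present on 2 wild-type arrays only, and BCAT7 on none. For the raffinose synthase and alkaline α-galactosidase relatives of DIN10, SIP2 (AT3G57520) had -0.25 (adjusted p = 0.355) and AT5G40390 had 0.31 (adjusted p = 0.213). The stachyose synthase gene STS and AT1G55740 were Present on 1 array each. The β-glucosidase genes BGLU28 and BGLU31, relatives of DIN2, were Present on 1 essp3 array each, and BGLU29 and BGLU32 on none, so that group of relatives was as weak in signal calls as DIN2 itself.

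Most of the other genes known to be induced by darkness or sugar starvation fell in essp3. Of 19 such genes, all tested, 13 fell, 1 rose and 5 did not pass the test, against 13.9% falling over the array, and the median log2 fold change was -0.64. The list was drawn up with earlier results of these arrays known, so the count is not independent evidence. BGAL4, a β-galactosidase of the cell wall, fell to 926, 818 and 832 on the essp3 arrays, against 4206, 5410 and 7617 on the wild-type arrays (log2 fold change -2.70, SE 0.18, adjusted p = 2.95e-07). DRM1 (listed as DYL1), a dormancy-associated gene, fell to 1302 ± 82.6 in essp3, against 6072 ± 1932 in wild type (SD, n = 3 each; log2 fold change -2.17, adjusted p = 3.71e-06). For both genes the wild-type arrays spread far more than the essp3 arrays, and the groups did not overlap. J8, a DnaJ-type chaperone of the chloroplast, fell by 1.36 on the log2 scale (SE 0.10, adjusted p = 8.02e-07). AKINBETA1, a β subunit of the energy-sensing kinase SnRK1, fell by 1.32 (SE 0.12, adjusted p = 4.81e-06).

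The single riser of that list was DIN11, a putative 2-oxoacid-dependent oxidase gene and a dark-inducible gene like the DIN members, which is named here because it went against its list. It read 350, 317 and 307 on the essp3 arrays and 92.1, 199 and 221 on the wild-type arrays, with 2 Present calls in wild type (log2 fold change 1.02, SE 0.30, adjusted p = 0.0201). The call depended on single arrays: the adjusted p was 0.0701 and 0.0588 without essp3 replicates 1 and 2, and 0.0548 without wild-type replicate 1, where the log2 fold change was 0.63, and ran from 0.00898 to 0.177 over all alternatives. Without wild-type replicate 1 the list had 16 falling genes, and with any other array left out it had 11 or 12. In the main fit the log2 fold change was below 0 for 17 of the 19 genes. Besides DIN11, DIN9, named here as the other DIN gene of the list, was above 0 and did not pass the test. It read 369 ± 15.3 in essp3 and 297 ± 37.7 in wild type (SD, n = 3 each; log2 fold change 0.32, SE 0.18, adjusted p = 0.212).

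Genes that break down other amino acids also fell more often than they rose. Of 14 tested genes, 8 fell, 1 rose and 5 did not pass, where 13.9% of all tested probe sets fell and 14.4% rose. The median log2 fold change was -0.69. GDH2, a glutamate dehydrogenase that returns carbon to the citric acid cycle, fell to 1589 ± 188 in essp3, against 4259 ± 874 in wild type (SD, n = 3 each; log2 fold change -1.41, adjusted p = 2.87e-05). HGO, homogentisate dioxygenase of tyrosine breakdown, fell to 866 ± 93.0 in essp3, against 1899 ± 35.2 in wild type (SD, n = 3 each; log2 fold change -1.14, adjusted p = 4.46e-05). AT4G33150, the bifunctional enzyme of lysine breakdown, fell by 1.45 (adjusted p = 0.000199) and ALDH5F1, succinate-semialdehyde dehydrogenase of the GABA shunt, by 1.18 (adjusted p = 0.000167), both on the log2 scale. The gene that rose was ERD5, the proline dehydrogenase ProDH1, named because it was alone, with 5088 ± 444 in essp3 and 3709 ± 780 in wild type (SD, n = 3 each; adjusted p = 0.0280). That call ended when essp3 replicate 2, essp3 replicate 3, wild-type replicate 1 or wild-type replicate 2 was left out (adjusted p from 0.0779 to 0.0992, and from 0.00473 to 0.182 over all alternatives).

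Synthesis of branched-chain amino acids runs in plastids. Of its 14 tested genes, 1 fell, 1 rose and 12 did not pass the test, where 13.9% of all tested probe sets fell and 14.4% rose. The median log2 fold change was 0.09. AT2G31810, a regulatory small subunit of acetolactate synthase, fell to 2454 ± 254 in essp3, against 5500 ± 636 in wild type (SD, n = 3 each; log2 fold change -1.16, SE 0.13, adjusted p = 2.96e-05). IMD3, an isopropylmalate dehydrogenase of leucine synthesis whose probe set shares probes with other transcripts, rose to 2553 ± 131 in essp3, against 1857 ± 305 in wild type (SD, n = 3 each; adjusted p = 0.0215). Without essp3 replicate 2 or wild-type replicate 3 the IMD3 call ended (adjusted p = 0.0918 and 0.0792, with a range of 0.0131 to 0.115 over all alternatives). AT3G23940, titled a dehydratase, gave 0.35 on the log2 scale (adjusted p = 0.0520), and OMR1, the threonine dehydratase of isoleucine synthesis, 0.36 (adjusted p = 0.0682).

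SnRK1, the plant relative of yeast SNF1 and animal AMPK, is activated by energy shortage, and bZIP transcription factors of groups C and S1 act with it on genes such as ASN1. Of 13 tested genes for its subunits and these factors, 2 fell, 2 rose and 9 did not pass, where 13.9% of all tested probe sets fell and 14.4% rose. The median log2 fold change of the 13 was -0.05. The 13 leave out AKINBETA1 and the bZIP factor bZIP1, which were counted with the dark or starvation genes. Both fell, so the count depends on that placing. Their log2 fold changes were -1.32 and -0.51 (adjusted p = 4.81e-06 and 0.0240). The call of bZIP1, named here for this reason, ended in 5 alternatives. KIN10, a catalytic subunit, fell to 628 ± 152 in essp3, against 1031 ± 82.8 in wild type (SD, n = 3 each; log2 fold change -0.74, SE 0.18, adjusted p = 0.00759). GBF6, also known as bZIP11, rose by 0.78 and bZIP2 by 0.72 on the log2 scale (adjusted p = 0.00321 and 0.00723). BZIP9, on a shared probe set, fell by 0.40 (adjusted p = 0.0310). Its call ended with either of essp3 replicates 1 and 2 left out, or with either of wild-type replicates 2 and 3 left out (adjusted p from 0.0618 to 0.141, with 0.00937 as the lowest over all alternatives).

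Genes known to be induced by sugar, the opposite condition, went both ways. Of 9 on the array 7 were tested: 2 rose, 2 fell and 3 did not pass, where 14.4% of all tested probe sets rose and 13.9% fell. The median log2 fold change was -0.22. BAM5, a β-amylase, fell to 186 ± 1.25 in essp3, against 561 ± 105 in wild type (SD, n = 3 each; adjusted p = 6.31e-05), and the nitrate reductase gene NIA1 fell by 0.68 on the log2 scale (adjusted p = 0.00502). EXO, a gene of growth in response to brassinosteroid, rose by 0.59 (adjusted p = 0.00560), and TPS5, a trehalose-phosphate synthase-like gene, rose by 0.61 (adjusted p = 0.0101; 0.0502 without essp3 replicate 2).

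**Figure D3:**
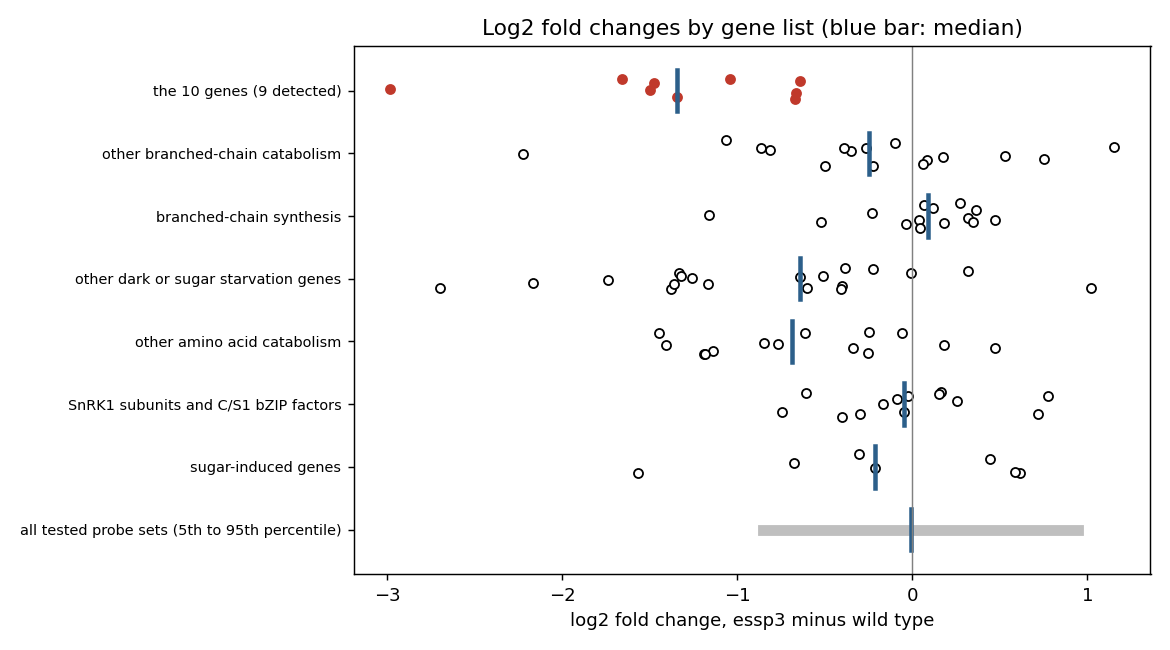
Log2 fold change (essp3 minus wild type) of every tested gene in the 10-gene set and in 6 other lists, each point a gene and each blue bar the median; the grey bar spans the 5th to 95th percentile of all tested probe sets (-0.85 to 0.95). The medians of the dark or starvation list (-0.64) and of other amino acid breakdown (-0.69) lie left of 0, and that of branched-chain synthesis (0.09) lies near it.

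The spread among the wild-type arrays is not the contrast that chose the genes, but it comes from the same wild-type signals. Those signals were known when the genes were picked, and the spread was looked at after the values had been seen. Wild-type replicate 1 was the lowest of its group for all 9 detected genes, which was so for 35.8% of all tested probe sets, and replicate 3 was the highest for 7 of the 9, against 42.0% of all. The 7 genes with both features were ASN1, SEN1, DIN3, DIN4, BCAT-2, MCCA and MCCB, where 22.6% of all tested probe sets had both. For DIN10 and IVD, replicate 2 was the highest. The median log2 difference of wild-type replicate 3 minus replicate 1 was 0.35 for the 9 genes and 0.05 for all tested probe sets. The 9 genes share the 3 arrays, so they are not separate observations of this pattern, and no test was made.

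The same array was lowest in wild type for 15 of 19 other dark or starvation genes, 10 of 16 other genes of branched-chain breakdown and 5 of 14 genes of branched-chain synthesis. It was also lowest for 8 of 14 genes of other amino acid breakdown, 7 of 13 SnRK1 and bZIP genes, 5 of 12 close family members and 3 of 7 sugar-induced genes, against 35.8% of all tested probe sets. Among essp3 arrays no replicate was lowest for all: replicate 1 was lowest for 3 of the 9 genes, replicate 2 for 1 and replicate 3 for 5. The wild-type arrays also differed in clock transcripts, whose levels follow the time of day. CCA1, a morning gene, read 496, 279 and 254 on wild-type replicates 1, 2 and 3, and LHY, its partner, read 228, 167 and 77.4. PRR5, which peaks later in the day, read 2247, 2526 and 3562 on those arrays, and GI, another later gene, read 2382, 2839 and 3076. Replicate 1 was thus the highest of its group for CCA1 and LHY and the lowest for PRR5 and GI, 4 genes named after their values were seen, and of all 10 clock genes it was highest for 4 and lowest for 4. Some clock genes also differed between genotypes: CCA1 read 1271 ± 99.1 in essp3 and 343 ± 133 in wild type, and PRR5 read 1012 ± 132 in essp3 and 2778 ± 693 in wild type (SD, n = 3 each; adjusted p = 2.82e-05 and 4.91e-05). Of the 10 clock genes 3 rose, 3 fell and 4 did not pass, against array-wide shares of 14.4% rising and 13.9% falling. The part of these clock differences in the values of the 10 genes was not tested.

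**Figure D4:**
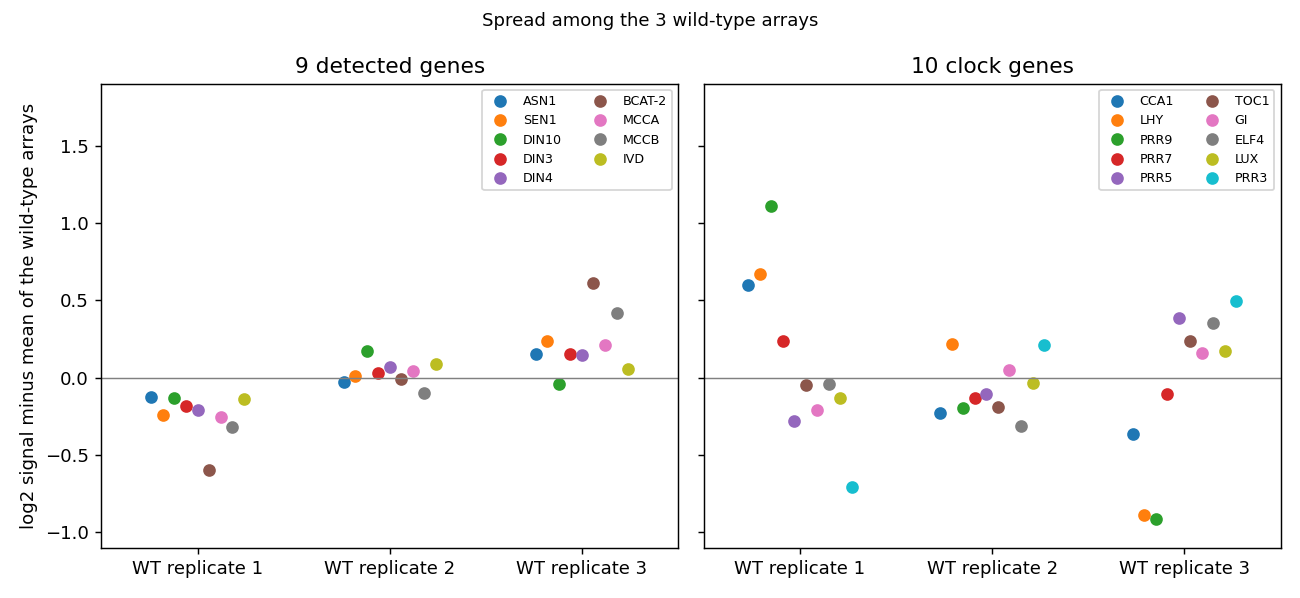
Log2 signal on each wild-type array minus the mean of the 3 wild-type arrays, for the 9 detected genes (left) and for 10 clock genes (right), each point a gene on an array. All 9 genes lie below 0 on replicate 1, where CCA1 and LHY lie above it and PRR5 and GI below it.

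Across all 6 arrays, the probe sets whose pattern was most like the mean of the standardised log2 signals of the 10 genes were PR4, a hevein-like defence gene (Pearson r = 0.999), UBC16, a ubiquitin-conjugating enzyme gene (0.998), MEE14 (0.998), ACP1, an acyl carrier protein gene of the chloroplast (0.998), and CCL (0.998). Their log2 fold changes were -1.39, -0.79, -1.20, -1.09 and -0.62. With DIN2 left out of the mean none of these 5 stayed among the 5 most alike, although r was still 0.988 to 0.994. The arrays fall into 2 genotype groups that set most of such a likeness: 9.59% of the 13617 other tested probe sets had r above 0.9, so r is a description of likeness only.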

How the data were processed

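The authors deposited a table of MAS5 signal intensities (linear scale, scaled per array to a common mean, per the file headers) with a Present, Marginal or Absent call for each probe set; MAS5 is named in the submitters' processing notes, and the sources used here do not give its settings. The deposited series values equalled the table. Genes were identified by the table's locus codes, of which 22091 of 22591 matched the RefSeq table of TAIR10.1, used for symbols and neighbours only. Log2 signals without offset or further scaling were fitted with limma 3.58.1 in R 4.3.3 (lmFit, eBayes with an intensity trend, two-sided) for the 13626 probe sets Present on at least 3 of 6 arrays; the code was tested on simulated data. The number of arrays, 3 per genotype, limits the precision; log2 fold changes had a median SE of 0.18. Exact permutation of 3 against 3 arrays cannot reach 0.05 and was not used.

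The 10 genes and all gene lists were chosen with earlier results of these data known. Named are the 10 genes, all measured genes of the pathway and family lists, up to 4 genes with the smallest adjusted p from each other list, and the 5 probe sets most like the set; exceptions are stated. Same-numbered replicates deviated together with correlations of only 0.02, 0.02 and 0.03, so the numbers were not taken to pair samples. Alternatives covered the detection filter, offset, scaling, variance model, array weights, replicate block, an unmoderated test and each array left out. In the gene lists, IMD1 and ARGAH1 and the leaf markers CAB1 and LHB1B2 had no locus code of their own in the table and were not analysed here.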

Additional observations from a re-analysis of the deposited data

How the results depend on the processing

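None of the 9 detected genes and none of the called genes in the lists changed sign in the alternatives run. For the 9 genes all essp3 arrays lay below all wild-type arrays. Their sign therefore could not change with the offset, array weights, the replicate block or an array left out. The median log2 fold change of the 9 detected genes was -1.31 with an offset of 32, -1.34 after quantile normalization, -1.31 with array weights, -1.35 with the replicate block and from -1.42 to -1.24 with an array left out. Single genes stayed between -3.28 and -2.68 (BCAT-2) and between -0.80 and -0.43 (MCCB). Replicate numbers were not taken to pair the samples. With the replicate block 3737 probe sets differed, against 3865. Each array deviated most like its own number in the other genotype, which is a hint from the data only. The unmoderated test, which does not share the spread between probe sets, called 1580 probe sets in all (797 rose, 783 fell), 2 other genes of branched-chain breakdown, 7 dark or starvation genes, 1 SnRK1 or bZIP gene and 1 sugar-induced gene. Among named genes it ended the calls of AT2G26800, mtLPD1, ETFBETA, AT4G33150, ERD5, DIN11, IMD3, STR18, KIN10, bZIP1, bZIP2, BZIP9, EXO, NIA1 and TPS5. Branched-chain synthesis had 1 call without the intensity trend, 1 without essp3 replicate 2 and 4 with array weights, and close family members had 5 with array weights. With an array left out, calls ran from 2679 to 3638 over all probe sets, 5 to 6 for other branched-chain breakdown, 1 to 2 for synthesis, 12 to 16 for dark or starvation genes, 8 to 9 for other amino acid breakdown, 2 to 4 for close family members, 3 to 5 for SnRK1 and bZIP genes and 3 to 5 for sugar-induced genes. Of 47 called genes in the lists, 22 lost the call in at least 1 setting, and the cause was not tested. Signals below the level of Present calls, as for DIN2, allow no fold change, and array scaling to a common mean hides a shift of all transcripts together.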
